A study of Mus musculus with 2 samples.

Results

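The genes described here are the collagen chains, followed across the vessel types of the mouse small intestine. They are the 44 of 31053 gene rows whose symbol is Col, a type number, the letter a and a chain number, so the choice used names and no measured value. Their levels were read in 2 single-cell RNA libraries of sorted endothelium. The donors were male wild-type C57/Bl6 mice, 8 weeks old, with no treatment and no engineered allele in the labels, and the tissue was their ileum. The gates were negative for EpCAM and CD45 and positive for CD31, and took cells without PDPN as blood endothelium and cells with PDPN as lymphatic endothelium. Both libraries carry the same labels, so there is 1 group with n = 2. The labels name neither the mice behind each library nor any pooling. A p-value therefore measures only how far differences between classes vary between these libraries, which may be technical. That spread is mostly borrowed from other genes. Since no label ties a cell to a gate, cells were put into 5 endothelial classes by their own marker counts, and each comparison is between classes of the same libraries.

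Collagen chains assemble into trimers in the secretory pathway, where they are hydroxylated, glycosylated and folded before they leave the cell. Endothelial cells rest on a basement membrane whose scaffold is a mesh of collagen IV, tied to the surrounding tissue by other collagens and proteoglycans. Fibrillar collagens such as types I and III form the cable-like fibres of the interstitium and are made mainly by fibroblasts. Multiplexin collagens sit at the boundary of basement membranes and give rise to the anti-angiogenic fragments endostatin and restin, while transmembrane collagens stay anchored in the membrane of the cell that makes them.

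The classes were set by raw counts of unique molecular identifiers (UMIs, each standing for 1 captured RNA molecule) in each cell. A lymphatic cell had at least 5 UMIs of Mmrn1, Lyve1 and Prox1 together, and a blood endothelial cell at least 5 of Flt1, Cd34, Plvap and Esam. Of the blood cells, venous cells had at least 4 UMIs of Ackr1, Selp and Madcam1, and arterial cells at least 3 of Sema3g, Fbln5 and Stmn2. The rest were capillary cells, called Plvap-high where Plvap exceeded Gpihbp1 plus Aqp1 and Gpihbp1/Aqp1 otherwise. No collagen took part in this. Library 1 gave 78 lymphatic, 145 arterial, 70 venous, 359 Plvap-high and 228 Gpihbp1/Aqp1 cells, and library 2 gave 975, 860, 261, 2347 and 1060. Markers outside the rule went with the class names: Flt4 was at 2059 and 1585 CPM (UMIs scaled to a class total of 1000000) in lymphatic cells of libraries 1 and 2 and at most 135.5 CPM elsewhere. Vwf was at 1365 and 1199 CPM in venous cells and at most 407 CPM elsewhere, and Gja5 at 175 and 118 CPM in arterial cells and at most 34.1 CPM elsewhere.

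The libraries held 3806199 and 26645476 UMIs in 1026 and 6302 barcodes, of which 2 barcode sequences were shared. Of the barcodes, 978 and 6067 were kept as cells. Median UMIs per cell lay between 2894 and 4096.5 over the classes of library 1 and between 2148 and 5301 over those of library 2. Lymphatic cells were the shallowest in both libraries and had mitochondrial shares of 3.47 and 5.32%, against 1.85 to 4.11% in the blood classes. The classes with the fewest UMIs were the lymphatic and venous classes of library 1, with 253979 and 326708 UMIs, so that a gene listed at 0 there may still reach 11.8 and 9.18 CPM (3 counts). Library 2 alone held fibroblasts (15 cells) and a usable number of mural cells, the pericytes and smooth muscle of the vessel wall (22 cells), which served to judge free RNA, meaning RNA released by other cells into the droplets.

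Of the 44 collagen genes, 38 had at least 1 UMI in the endothelial classes and 21 had at least 30. The 6 with none were Col8a2, Col9a1, Col9a2, Col10a1, Col11a1 and Col19a1. Of the 21, 6 of 11 were fibrillar, 6 of 9 network-forming, 2 of 2 multiplexins, 3 of 4 transmembrane, 2 of 6 microfibrillar and 2 of 9 fibril-associated chains. Only 11 of the 44 passed the filter on low counts of the test across classes: Col3a1, Col4a1, Col4a2, Col4a3, Col5a2, Col8a1, Col13a1, Col14a1, Col15a1, Col18a1 and Col23a1. The remaining 33 are given as levels, apart from a few fitted without this filter at the end of the Results. A chain that passed because it is high in 1 class was bound to differ between classes. Col14a1 passed through lymphatic cells alone, Col8a1 through arterial, Col4a3 through Plvap-high, and Col5a2 and Col18a1 through arterial and lymphatic cells.

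The chains with the most UMIs, Col4a1 and Col4a2, lie head to head on chromosome 8. In GRCm38 coordinates Col4a1 spans chr8:11198423-11312826 on the minus strand and Col4a2 chr8:11312805-11449287 on the plus strand, so their annotated first exons overlap by 22 bases. Col4a4 (chr1:82448423-82586849, minus strand) and Col4a3 (chr1:82586921-82722059, plus strand) are also divergent, with 71 bases between their starts. Both junctions are shown on the plus strand of the reference, since these are the 2 pairs of neighbours whose levels are compared below. Capitals mark the 22 shared bases of Col4a1 and Col4a2 at chr8:11312801-11312830, and the Col4a4 to Col4a3 gap lies at chr1:82586850-82586920.
Col4a1 and Col4a2: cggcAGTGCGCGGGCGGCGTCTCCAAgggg
Col4a4 and Col4a3: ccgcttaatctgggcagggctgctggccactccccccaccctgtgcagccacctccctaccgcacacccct

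Col15a1 and Col13a1 were the well-counted chains that separated the 2 kinds of capillary, and the 250 bases before their annotated starts in the RefSeq table for GRCm38.p6 are given on the strand of the gene. The Col15a1 stretch is chr4:47207762-47208011 on the plus strand, and that of Col13a1 is chr10:61979109-61979358 on the minus strand. In the GENCODE annotation Col15a1 starts further on, at chr4:47208161, so its stretch does not adjoin that start. The bases just before the GENCODE start were not searched. 5 short motifs were looked for on both strands: the TATA element TATAAA, the box CCAAT, the GC box as GGGCGG, the Ets core as CCGGAA and the Sox site as AACAAT. The Col15a1 stretch held none of them, and that of Col13a1 held TATAAA, in capitals. This match lies near the end of the stretch that is farthest from the annotated start, and its function was not tested.
Col15a1: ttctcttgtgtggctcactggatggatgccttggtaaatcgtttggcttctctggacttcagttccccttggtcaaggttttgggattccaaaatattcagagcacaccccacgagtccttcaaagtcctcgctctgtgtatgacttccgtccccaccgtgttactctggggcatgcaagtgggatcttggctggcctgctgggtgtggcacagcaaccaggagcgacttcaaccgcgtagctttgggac
Col13a1: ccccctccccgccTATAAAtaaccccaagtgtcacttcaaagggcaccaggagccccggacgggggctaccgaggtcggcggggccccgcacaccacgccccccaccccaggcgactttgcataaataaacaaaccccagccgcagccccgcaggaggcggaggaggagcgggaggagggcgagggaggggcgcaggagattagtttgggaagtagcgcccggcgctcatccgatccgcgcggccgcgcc

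Among all 32851 RefSeq windows of this kind, TATAAA stood in 12.4%, CCAAT in 33.8%, GGGCGG in 32.7%, CCGGAA in 12.03% and AACAAT in 9.42%. In the 38 windows of the 35 collagen genes that matched the table, the counts were 5, 13, 22, 0 and 1. These are matches of letters only.

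**Figure D1:**
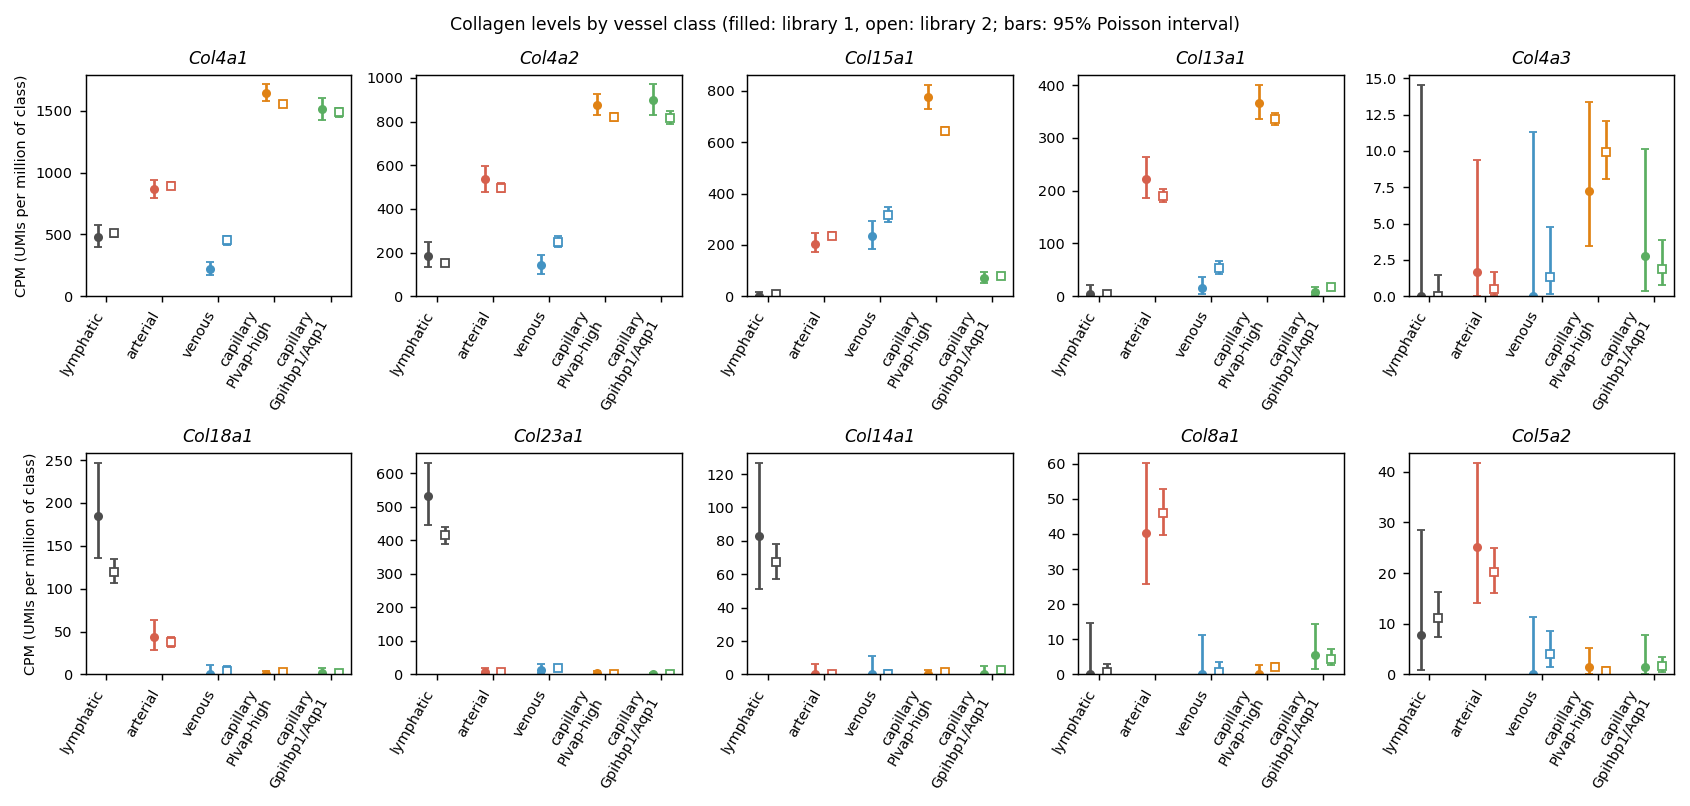
Levels of 10 collagen genes in 5 endothelial classes, in CPM on linear axes that start at 0 and differ between panels. Each point is 1 library (filled, library 1; open, library 2) with its exact 95% Poisson interval. Col4a1 and Col4a2 are high in both capillary classes, Col15a1 and Col13a1 in Plvap-high capillaries only among the capillary classes, Col23a1 and Col14a1 in lymphatic cells, Col8a1 in arterial cells, and Col18a1 in lymphatic and then arterial cells.

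Network-forming chains came first. Col4a1 and Col4a2 encode the chains of the common collagen IV of basement membranes. Col4a1 was at 1647 and 1558 CPM in Plvap-high capillaries of libraries 1 and 2 and at 1513 and 1487 CPM in Gpihbp1/Aqp1 capillaries. It was at 865 and 892 CPM in arterial cells, at 480.4 and 509 CPM in lymphatic cells and at 220.4 and 451 CPM in venous cells. Thus capillary values lay above arterial values and these above lymphatic and venous values in each library. Col4a2 was at 877 and 822 CPM in Plvap-high and 899.8 and 818 CPM in Gpihbp1/Aqp1 capillaries, at 535 and 497 CPM in arterial, 141 and 248 CPM in venous and 185 and 151 CPM in lymphatic cells.

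In edgeR's quasi-likelihood test, both chains were lower in arterial than in capillary cells, taken as the mean of both capillary classes, by log2 fold changes of -0.79 ± 0.14 (SE, adjusted p = 5.75e-04) for Col4a1 and -0.70 ± 0.11 (adjusted p = 1.9e-06) for Col4a2. The venous deficit against capillaries was larger, at -1.91 ± 0.16 (adjusted p = 3.51e-08) for Col4a1 and -1.79 ± 0.13 (adjusted p = 2.23e-16) for Col4a2. By library, the venous difference of Col4a1 was -2.83 in library 1 and -1.75 in library 2 on log2(CPM + 1), so its size differed between the libraries while its direction did not. Plvap-high and Gpihbp1/Aqp1 capillaries were not separated by either chain, with log2 differences of 0.21 ± 0.15 for Col4a1 (adjusted p = 0.363) and 0.10 ± 0.12 for Col4a2 (adjusted p = 0.59, both edgeR).

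Lymphatic cells stood apart by the balance of the pair. Col4a1 made up 72.2% of the Col4a1 and Col4a2 UMIs in lymphatic cells of library 1 (exact 95% binomial interval 64.8 to 78.8%) and 77.1% in library 2 (75.0 to 79.1%). In the 4 blood classes the share lay between 61.02 and 65.5% over both libraries. The library 2 interval does not reach any blood value, whereas that of library 1 begins just below the highest one. Lymphatic and venous cells differed in 40.9% of all genes. Between them Col4a1 differed by 0.20 ± 0.19 on the log2 scale (edgeR, adjusted p = 0.429) and Col4a2 by -0.68 ± 0.17 (adjusted p = 8.38e-04). This Col4a2 difference was 0.39 in library 1 and -0.71 in library 2, and it was lost in DESeq2 (adjusted p = 0.07) and without the library block (edgeR, adjusted p = 0.0637). Counts from 3' ends do not allow the 2 chains to be compared in amount, only their ratio between classes.

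**Figure D2:**
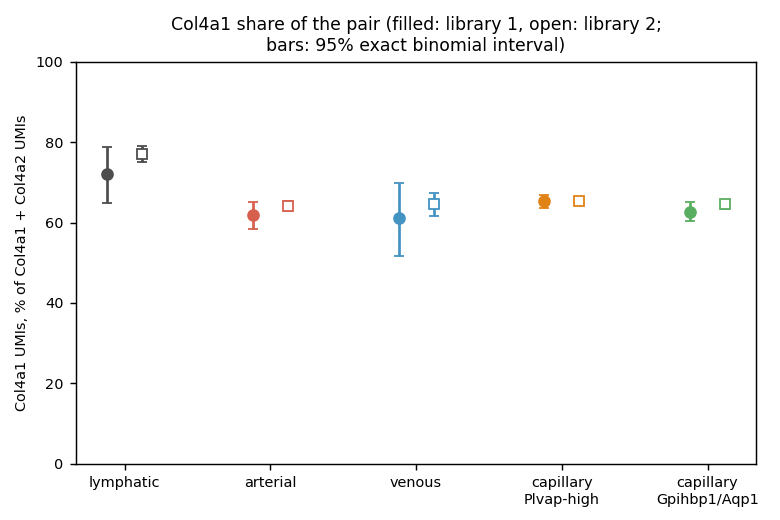
Share of Col4a1 among the Col4a1 and Col4a2 UMIs of each endothelial class, in percent, with exact 95% binomial intervals, for library 1 (filled) and library 2 (open). Lymphatic cells sit at 72.2 and 77.1%, and the 4 blood classes between 61.02 and 65.5%.

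Col4a3 and Col4a4, chains of the collagen IV known from the glomerular basement membrane, were present at low levels. Col4a3 was at 7.26 and 9.92 CPM in Plvap-high capillaries, at 2.79 and 1.87 CPM in Gpihbp1/Aqp1 capillaries, at 1.68 and 0.47 CPM in arterial cells, at 0 and 1.33 CPM in venous cells, and at 0 in lymphatic cells of both libraries. The Plvap-high excess over Gpihbp1/Aqp1 capillaries was 2.31 ± 0.53 on the log2 scale (edgeR, adjusted p = 3.63e-04), but DESeq2 gave an adjusted p of 0.197. The 102 Col4a3 UMIs of Plvap-high cells in library 2 were spread over 90 cells. Over both libraries, the level in Plvap-high cells was at least 8.82-fold higher than the 3-count floor of lymphatic cells. Col4a4, its divergent neighbour, was at 2.18 and 3.21 CPM in Plvap-high capillaries, at most 1.41 CPM in the other blood classes and at 0 in venous and lymphatic cells. The order of the classes was thus similar for both, at levels too low for the second to be tested. Col4a5 was seen almost only in lymphatic cells, at 3.94 and 11.6 CPM against at most 0.10 CPM in any blood class, and it was also at 175 CPM in fibroblasts. Col4a6 had 3 UMIs in all.

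Col8a1, a short-chain network collagen of vessel walls, was highest in arterial cells. It was at 40.4 and 46.0 CPM in arterial cells, at 5.59 and 4.54 CPM in Gpihbp1/Aqp1 capillaries, at 0 and 2.24 CPM in Plvap-high capillaries, at 0 and 0.66 CPM in venous cells and at 0 and 0.80 CPM in lymphatic cells. Arterial cells of each library were above every other class. The arterial excess over capillaries was 3.91 ± 0.27 on the log2 scale (edgeR, adjusted p = 2.46e-20). Against venous cells, 220 UMIs stood against 1, a ratio of CPM of 83.1 with a counting interval of 14.8 to 3297, and against lymphatic cells 220 stood against 2, a ratio of 62.4 with an interval of 17.1 to 518. A Col8a1 UMI was found in 11.7 and 14.2% of arterial cells, so most arterial cells showed none at this depth.

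The multiplexins Col15a1 and Col18a1 differed in pattern. Col15a1 (chr4:47208161-47313167), which links basement membranes to the collagen fibrils below, was at 774 and 645 CPM in Plvap-high capillaries, at 233 and 316 CPM in venous cells, at 205 and 236 CPM in arterial cells, at 71.3 and 79.0 CPM in Gpihbp1/Aqp1 capillaries and at 0 and 8.40 CPM in lymphatic cells. Plvap-high values exceeded all others in each library, and lymphatic values were below all others. The 2 capillary kinds differed by 3.33 ± 0.14 on the log2 scale (edgeR, adjusted p = 1.29e-27), and lymphatic cells were lower than the mean of the 4 blood classes by -5.11 ± 0.24 (adjusted p = 5.68e-27). Because arterial cells lay between the 2 capillary kinds, their difference from the capillary mean was -0.02 ± 0.12. Taken separately, in comparisons where 12.7 and 17.5% of all genes passed, arterial cells were below Plvap-high capillaries by -1.68 ± 0.13 (edgeR, adjusted p = 1.58e-16) and above Gpihbp1/Aqp1 capillaries by 1.65 ± 0.15 (adjusted p = 2.61e-13). Venous cells, in comparisons where 22.9 and 28.6% passed, were likewise -1.17 ± 0.13 below the former (adjusted p = 1.02e-10) and 2.15 ± 0.16 above the latter (adjusted p = 2.68e-17). Venous cells against the capillary mean gave 0.49 ± 0.13 (edgeR, adjusted p = 2.2e-03), a call lost in DESeq2 (adjusted p = 0.0956) and absent from library 1, where the difference was -0.02.

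Col18a1 (chr10:77052178-77166548), the source of endostatin, was at 185 and 120.0 CPM in lymphatic cells and at 43.7 and 37.8 CPM in arterial cells. It was at 0 and 4.64 CPM in venous cells, at 0.73 and 2.33 CPM in Plvap-high capillaries and at 1.40 and 1.60 CPM in Gpihbp1/Aqp1 capillaries. In a comparison that 47% of all genes passed, lymphatic cells were above arterial cells by 1.69 ± 0.20 on the log2 scale (edgeR, adjusted p = 2.7e-11), and arterial cells above capillaries by 4.39 ± 0.28 (adjusted p = 3.87e-22) and above venous cells by 3.19 ± 0.44 (adjusted p = 1.12e-08). Mural cells of library 2 held 269 CPM, so the arterial value there was 14.1% of the mural one. Other mural genes (Acta2, Tagln, Des, Higd1b, Kcnj8 and Cspg4) were at a median of 0.045% of their mural level in the same arterial cells. In lymphatic cells of library 2, Col18a1 was at 44.7% of its mural level. The other mural genes had a median of 0.062% there, but Kcnj8 was at 13.2%. The 3' end of Col18a1 overlaps that of Slc19a1 on the other strand, and no source used here says whether the counting used strand. Slc19a1 itself was at 3.94 and 2.40 CPM in lymphatic cells and at 0 in arterial cells.

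The transmembrane collagens Col13a1 and Col23a1 were high in different vessels. Col13a1 (chr10:61838236-61979108, minus strand), found at cell junctions and adhesions, was at 367 and 337 CPM in Plvap-high capillaries and 222 and 191 CPM in arterial cells, against 15.3 and 53.1 CPM in venous cells, 8.38 and 17.9 CPM in Gpihbp1/Aqp1 capillaries and 3.94 and 4.40 CPM in lymphatic cells. Plvap-high capillaries exceeded Gpihbp1/Aqp1 capillaries by 4.56 ± 0.20 on the log2 scale (edgeR, adjusted p = 1.3e-21). Arterial cells exceeded venous cells by 2.0 ± 0.21 (adjusted p = 5.76e-10) and the capillary mean by 1.44 ± 0.15 (adjusted p = 7.43e-10). They were below Plvap-high capillaries alone by -0.84 ± 0.14 (edgeR, adjusted p = 1.07e-05), which DESeq2 did not call (adjusted p = 0.3). Venous values differed more between the libraries than those of any other class for this gene, and the venous difference from the capillary mean, -0.55 ± 0.23, did not pass (edgeR, adjusted p = 0.0752).

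Col23a1 (chr11:51289920-51583918, plus strand), a transmembrane collagen that can be shed from the surface, was the leading lymphatic collagen by size of difference among chains counted in every blood class. It was at 532 and 415 CPM in lymphatic cells, at 12.2 and 17.9 CPM in venous, 8.41 and 6.34 CPM in arterial, 5.09 and 1.85 CPM in Plvap-high and 0 and 1.60 CPM in Gpihbp1/Aqp1 capillary cells. The lymphatic excess over the 4 blood classes was 6.54 ± 0.14 on the log2 scale (edgeR, adjusted p = 4.5e-50). Among blood classes, venous cells exceeded capillaries by 3.40 ± 0.44 (adjusted p = 1.55e-09), and arterial cells exceeded them by 1.92 ± 0.42 (edgeR, adjusted p = 4.7e-04). Arterial cells were below venous cells by -1.47 ± 0.40 (edgeR, adjusted p = 3.44e-03), with an adjusted p of 0.0678 in DESeq2. Col17a1, the hemidesmosome collagen of epithelia, had 133 UMIs in all and was highest in Plvap-high capillaries, at 4.36 and 9.44 CPM. In library 2 its 97 UMIs there came from 91 cells. It was at 4.19 and 1.33 CPM in Gpihbp1/Aqp1 capillaries, 0 and 4.93 CPM in arterial, 0 and 0.66 CPM in venous cells and at 0 in lymphatic cells of both libraries. The Poisson intervals of the 2 capillary kinds overlapped in library 1, at 6 and 3 UMIs, and did not in library 2. It did not pass the filter on low counts.

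The fibril-associated collagen Col14a1 (chr15:55307750-55520803, plus strand), which coats interstitial fibrils and regulates their width, was at 82.7 and 67.2 CPM in lymphatic cells. It was at 0 in all 4 blood classes of library 1 and at 0 to 2.40 CPM in those of library 2. Against venous cells, where no UMI was counted, the lymphatic level was at least 42.0-fold higher than the 3-count floor of both libraries together. Against arterial cells 189 UMIs stood against 2, a ratio of CPM of 167 with a counting interval of 45.5 to 1386. The fitted lymphatic excess over the 4 blood classes was 7.15 ± 0.37 (edgeR, adjusted p = 1.06e-27) and rests on these near-zero blood counts. Fibroblasts of library 2 held 477 CPM, so that the lymphatic value was 14.1% of theirs, and at most 0.50% was seen in a blood class. Col9a3, a chain of the collagen IX of cartilage, was the other of this group with at least 30 UMIs. The 3' end of Col9a3 overlaps the gene Tcfl5, and the effect on its counts was not tested. Col9a3 was at 3.63 and 1.46 CPM in Plvap-high and 0 and 1.33 CPM in Gpihbp1/Aqp1 capillaries, 0 and 1.17 CPM in arterial, 0 and 1.99 CPM in venous and 3.94 and 1.20 CPM in lymphatic cells. No class stood apart in both libraries.

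Most fibrillar chains were far below their fibroblast level, with the highest percentages in Col5a2 and, in lymphatic cells, Col27a1 and Col5a3. Col1a1, Col1a2, Col3a1 and Col5a1 reached at most 9.07 CPM in any endothelial class of either library, against 2235, 2585, 2689 and 477 CPM in the fibroblasts of library 2. In library 2 their endothelial levels were 0.072 to 0.922% of the fibroblast level. They are the main chains of interstitial fibrils, with Col5a1 a minor one that sets fibril width. Col3a1 was at 1.45 and 6.32 CPM in Plvap-high and 2.79 and 9.07 CPM in Gpihbp1/Aqp1 capillaries, 0 and 5.63 CPM in arterial, 3.06 and 7.96 CPM in venous and 0 and 7.60 CPM in lymphatic cells, in libraries 1 and 2. Col1a1 was at 0.73 and 3.31 CPM in Plvap-high and 0 and 4.0 CPM in Gpihbp1/Aqp1 capillaries, 1.68 and 2.35 CPM in arterial, 0 and 3.98 CPM in venous and 3.94 and 1.60 CPM in lymphatic cells. Col1a2 was at 0.73 and 3.50 CPM in Plvap-high and 0 and 2.40 CPM in Gpihbp1/Aqp1 capillaries, 0 and 3.05 CPM in arterial, 0 and 4.64 CPM in venous and 0 and 4.40 CPM in lymphatic cells. Each of these 3 was higher in library 2 than in library 1 in both capillary classes. Col5a1 was at 0 and 2.04 CPM in Plvap-high and 6.99 and 2.40 CPM in Gpihbp1/Aqp1 capillaries, 0 and 1.17 CPM in arterial, 3.06 and 2.65 CPM in venous and 0 and 4.40 CPM in lymphatic cells. In library 1 these values rest on 0 to 5 UMIs each. The microfibrillar chains Col6a1, Col6a2 and Col6a3, whose beaded filaments lie around cells, were at 0.052 to 0.295% of the fibroblast level. Col6a1 was at 0 and 0.88 CPM in Plvap-high and 1.40 and 4.54 CPM in Gpihbp1/Aqp1 capillaries, 1.68 and 1.41 CPM in arterial, 0 and 1.99 CPM in venous and 0 and 0.80 CPM in lymphatic cells. Col6a2 was at 0 and 1.85 CPM in Plvap-high and 1.40 and 1.07 CPM in Gpihbp1/Aqp1 capillaries, 0 and 0.94 CPM in arterial, 0 and 0.66 CPM in venous and 0 and 1.20 CPM in lymphatic cells. Neither of these 2 was highest in the same class in both libraries. Other fibroblast genes (Clec3b, Fbln1, Mfap5, Mmp2 and Pcolce) had medians between 0.097 and 0.504% in the same classes and a highest value of 4.95%, that of Pcolce in Plvap-high capillaries. Without Pcolce, the highest of these genes was Mmp2 at 0.891% in arterial cells. In lymphatic cells their highest value was 0.550%, and Col5a1 lay above it there, at 0.922% (counting interval 0.460 to 1.65%). In the same cells Col27a1 was at 4.37% and Col5a3 at 2.75% of the fibroblast level, on 14 and 8 UMIs. Col3a1 was tested and did not pass in any of the 5 comparisons, with edgeR adjusted p between 0.431 and 0.94, and keeping the cells that met the rules of more than 1 class made it pass in 2 of them. Col11a2 was at 2.91 and 2.53 CPM in Plvap-high and 1.40 and 2.13 CPM in Gpihbp1/Aqp1 capillaries, 1.68 and 2.11 CPM in arterial, 3.06 and 1.33 CPM in venous and 3.94 and 4.0 CPM in lymphatic cells. It thus had at least 1 UMI in all 10 class sums, and none in fibroblasts or mural cells, where a count of 0 allows up to 34.9 and 29.9 CPM in library 2.

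Col5a2 (chr1:45374321-45503282, minus strand), a chain of the collagen V that nucleates type I fibrils, was at 25.2 and 20.2 CPM in arterial cells, 7.87 and 11.2 CPM in lymphatic cells, 0 and 3.98 CPM in venous cells, 1.45 and 0.68 CPM in Plvap-high and 1.40 and 1.60 CPM in Gpihbp1/Aqp1 capillaries. Arterial values were the highest in both libraries. Arterial cells exceeded capillaries by 4.22 ± 0.39 on the log2 scale (edgeR, adjusted p = 2.29e-14) and venous cells by 2.55 ± 0.57 (adjusted p = 2.88e-04). In library 2 these levels were 3.85% of the fibroblast level in arterial and 2.14% in lymphatic cells, against 0.130 to 0.760% in the others. The 10 fibroblast markers summed to 38.7 and 56.8 CPM in arterial cells, the highest of the 5 classes in each library, against 0 and 19.2 CPM in lymphatic cells. With every cell that held a UMI of a mural or fibroblast class marker left out, the arterial excess over capillaries was 4.13 (edgeR, adjusted p = 1.22e-12), against 4.22 with them. Cells with such RNA but no UMI of these markers stayed in. A part of fibroblast or mural RNA in arterial Col5a2 was not tested. The signal came from few cells: in library 1 all 15 arterial UMIs lay in 7 of 145 cells, and in library 2 the 10 highest of 860 cells held 47.7% of 86 UMIs. Lymphatic cells were above the mean of the 4 blood classes by 1.71 ± 0.43 (edgeR, adjusted p = 5.33e-04), but this became 0.89 (adjusted p = 0.0745) with all blood cells pooled and turned to -0.32 (adjusted p = 0.393) with mixed cells kept. Against arterial cells they were at -1.04 ± 0.40 (edgeR, adjusted p = 0.0254), a call lost in DESeq2 (adjusted p = 0.16) and without the library block (edgeR, adjusted p = 0.0603).

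**Figure D3:**
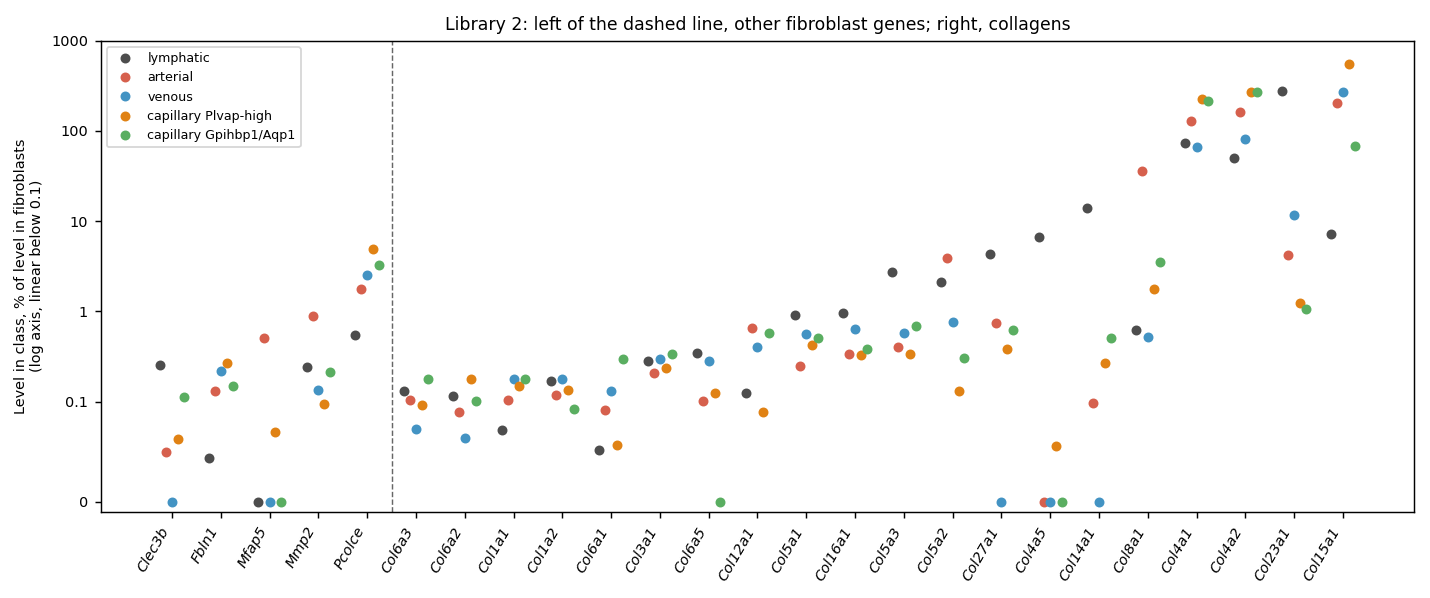
Level of each gene in the 5 endothelial classes of library 2 as a percent of its level in the 15 fibroblasts of that library, on a log axis that is linear below 0.1. Types I, III and VI lie among the fibroblast genes left of the dashed line, while Col4a1 and Col4a2 lie at 49.95% or higher in every class, Col23a1 at 274% in lymphatic cells and Col8a1 at 35.9% in arterial cells.

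The same measure gave higher percentages for other chains, in all classes or in some. Col4a5, also of basement membranes, was at 6.64% in lymphatic cells and at most 0.056% in the blood classes. Col4a1 in endothelium was at 65.7 to 227% of its fibroblast level over the 5 classes, Col4a2 at 49.95 to 271% and Col15a1 at 7.22 to 554%. Col23a1 in lymphatic cells was at 274% and Col8a1 in arterial cells at 35.9% of the fibroblast level. Fibroblasts were few, so each of these percentages carries the counting error of 15 cells.

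Shares of cells with a UMI were compared after thinning each cell to 1000 UMIs. Col4a1 was then found in 68.1 and 75.0% of Plvap-high and 75.4 and 72.3% of Gpihbp1/Aqp1 capillary cells of libraries 1 and 2. The share was 52.5 and 54.2% in arterial, 41.3 and 37.8% in lymphatic and 26.1 and 32.2% in venous cells. Col15a1 was found in 49.9 and 46.3% of Plvap-high cells and in 4.91 and 5.53% of Gpihbp1/Aqp1 cells. Col13a1 was found in 27.4 and 27.1% of Plvap-high cells and Col23a1 in 42.7 and 31.1% of lymphatic cells. Col18a1 was found in 12 and 8.46% of lymphatic and 3.55 and 3.49% of arterial cells. Without thinning, Col4a1 was found in 94.99 and 97.0% of Plvap-high cells (median depth 3673 and 4153 UMIs), Col15a1 in 83.0 and 83.6%, and Col23a1 in 70.5 and 54.5% of lymphatic cells. The fibroblast gene Dcn, which endothelium should lack, was found in 0 to 2.48% of thinned and 0 to 9.96% of unthinned endothelial cells. Leaving out cells below 1000 UMIs removed 0 to 8 cells per class, apart from 11 Gpihbp1/Aqp1, 21 Plvap-high and 65 lymphatic cells of library 2.

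Lymphatic against blood endothelium was the widest contrast over the genome, with 51.6% of 10535 genes passing at an adjusted p below 0.05 in edgeR. Of the 11 collagens tested, 10 passed, among them Col14a1, which had passed the filter through lymphatic cells alone. Col5a2 and Col18a1 had passed it through arterial and lymphatic cells. Col14a1, Col23a1, Col18a1 and Col5a2 were higher in lymphatic cells (25.6% of all genes were), and Col15a1, Col13a1, Col4a3, Col8a1, Col4a2 and Col4a1 were lower (26% of all genes were). Col4a1 was lower by -1.03 ± 0.15 (edgeR, adjusted p = 1.16e-05), Col4a2 by -1.85 ± 0.13 (adjusted p = 4.87e-17) and Col13a1 by -4.35 ± 0.33 (adjusted p = 1.16e-14). The calls of Col4a3 (adjusted p = 0.0155) and Col8a1 (adjusted p = 0.0323) rest on 0 and 2 lymphatic UMIs and were lost in several other settings. Since Col8a1 and Col5a2 were highest in arterial cells, the mean of the 4 blood classes describes no blood class well for them.

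Arterial and capillary endothelium differed in 10.6% of all genes. Of the 11 collagens, 8 passed: Col18a1, Col5a2, Col8a1, Col23a1 and Col13a1 were higher in arterial cells, where 7.01% of genes were, and Col4a3, Col4a1 and Col4a2 were lower, where 3.62% were. Here and in the comparisons below, Col8a1, Col5a2, Col18a1 and Col4a3 were bound to be higher in the classes through which they passed the filter. The share of the 11 that passed is therefore no trait of collagens. Venous and capillary endothelium differed in 26% of genes and in 4 of the 11 collagens, with Col23a1 and Col15a1 higher (14.9% of genes) and Col4a1 and Col4a2 lower (11.1%). Of all genes called in this contrast 57.3% were higher in venous cells, and 38.6% without TMM scaling. Arterial and venous endothelium differed in 22.4% of genes and in 8 of the 11 collagens. Col8a1, Col18a1, Col5a2, Col13a1, Col4a1 and Col4a2 were higher in arterial cells (10.4% of genes) and Col23a1 and Col15a1 were lower (12%). Col4a1 differed by 1.11 ± 0.18 (edgeR, adjusted p = 1.04e-04), Col4a2 by 1.09 ± 0.15 (adjusted p = 2.96e-08) and Col15a1 by -0.51 ± 0.14 (adjusted p = 5.74e-03), the last lost in DESeq2 (adjusted p = 0.152). Of all genes called between arterial and venous cells 46.3% were higher in arterial cells, and 61.9% without scaling.

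Plvap-high and Gpihbp1/Aqp1 capillaries differed in 25.9% of genes and in 3 of the 11 collagens. Col13a1, Col15a1 and Col4a3 were higher in Plvap-high cells, where 14.1% of genes were, and none was lower, where 11.8% were. Of all genes called here 54.5% were higher in Plvap-high cells, and 37.7% without scaling. The direction of the collagens named in the last 3 comparisons was the same with and without scaling.

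**Figure D4:**
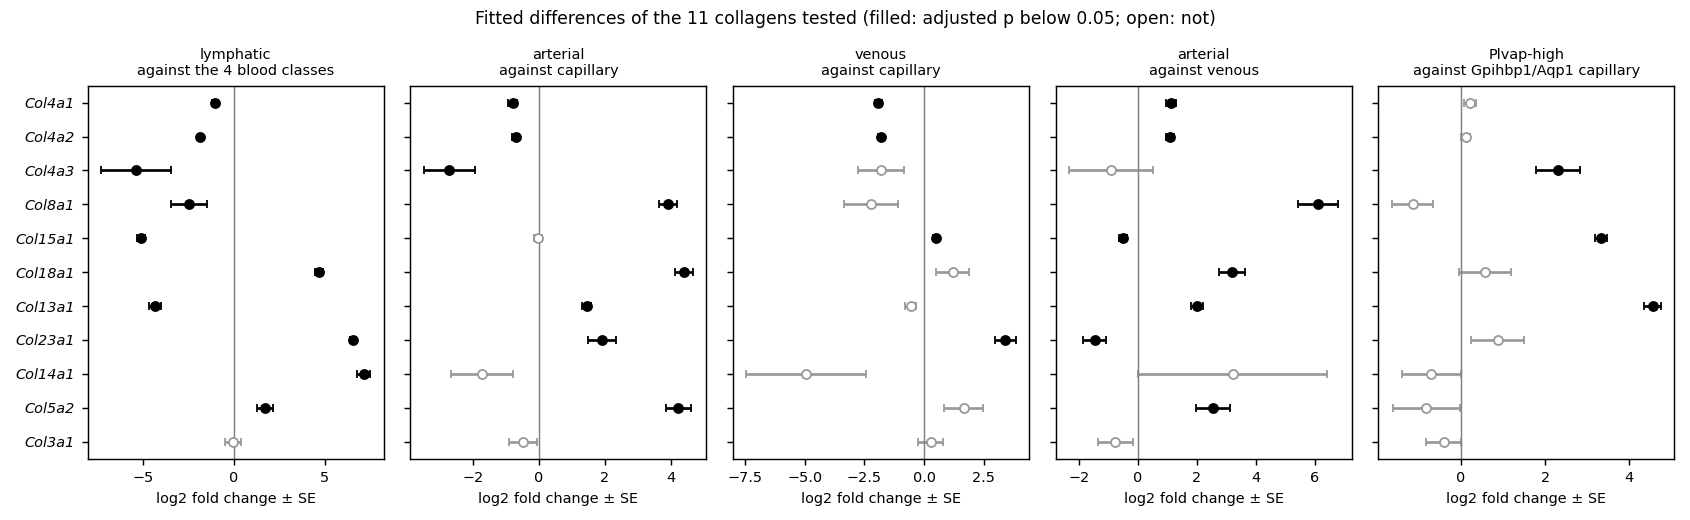
Fitted log2 fold changes ± SE (edgeR, 2 libraries) of the 11 collagens tested in each of the 5 comparisons, with a separate horizontal axis in each panel. Filled points passed at an adjusted p below 0.05. Col23a1, Col14a1 and Col18a1 lie right of 0 in the lymphatic panel, and Col15a1 and Col13a1 lie right of 0 in the panel of the 2 capillary kinds.

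Of 33 genes that modify, fold, process or crosslink collagen, 25 were tested. Between lymphatic and blood endothelium 12 were higher, 9 lower and 4 did not pass, where 51.6% of all genes passed, with a median log2 fold change of 0.24 against 0.01 over all genes. Loxl2, a lysyl oxidase that crosslinks collagen IV, was at 189 and 149 CPM in lymphatic cells against 2.65 to 12.2 CPM in the blood classes, a difference of 4.44 ± 0.18 on the log2 scale (edgeR, adjusted p = 2.73e-34). The prolyl 3-hydroxylases P3h3 and P3h2 were higher by 3.84 ± 0.24 and 3.32 ± 0.32, and the prolyl 4-hydroxylase subunit P4ha2 was lower by -2.64 ± 0.34. Against the mean of the 4 blood classes, lymphatic cells thus had less Col4a1 and Col4a2 and more Loxl2, P3h2 and P3h3 RNA, while Col4a1 was not below the venous level in either library.

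Between arterial cells and capillaries 1 of the 25 was higher, 4 were lower and 20 did not pass, where 10.6% of all genes passed (median -0.07 against -0.01 over all genes). The 1 was Lox, the lysyl oxidase of fibrillar collagen and elastin. It was at 52.1 and 20.4 CPM in arterial cells and at most 3.06 CPM in the other classes. Its difference from capillaries was 6.26 ± 0.46 (edgeR, adjusted p = 9.71e-19). Lox passed the filter on low counts through arterial cells alone, so here and against venous cells it was bound to be higher in them. Pcolce, Colgalt2 and Pxdn were among the lower ones, at -1.17 ± 0.36, -0.88 ± 0.17 and -0.60 ± 0.13. Between venous cells and capillaries 8 were higher and 6 lower, where 26% of all genes passed (median 0.16 against -0.03). Tll1, a tolloid protease that cleaves procollagen, was at 269 and 183 CPM in venous cells against 2.79 to 38.4 CPM elsewhere, and exceeded capillaries by 5.01 ± 0.19 (edgeR, adjusted p = 1.29e-34). P3h3 and P3h2 were also higher in venous cells, by 2.66 ± 0.45 and 1.61 ± 0.56. So was Lox, by 2.85 ± 1.11 (edgeR, adjusted p = 0.0492), on 1 and 3 venous UMIs in libraries 1 and 2. Between arterial and venous cells 4 were higher and 5 lower, where 22.4% of all genes passed (median -0.21 against 0.01), led by Tll1 at -5.18 ± 0.25, Lox at 3.41 ± 0.60, P3h2 at -2.86 ± 0.72 and P3h3 at -2.28 ± 0.50.

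Between the 2 capillary kinds 7 were higher and 2 lower in Plvap-high cells, where 25.9% of all genes passed (median 0.08 against 0.00). Pxdn, the peroxidase that forms sulfilimine crosslinks in collagen IV, was at 95.2 and 68.4 CPM in Plvap-high and 288 and 161 CPM in Gpihbp1/Aqp1 capillaries, a difference of -1.26 ± 0.14 (edgeR, adjusted p = 6.15e-12). Col4a1 and Col4a2 did not pass between the same cells. Tll1, P3h2 and Pcolce were higher in Plvap-high cells, by 2.44 ± 0.36, 1.98 ± 0.56 and 0.89 ± 0.33.

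Of 10 collagen receptor genes 5 were tested. Itga1, the integrin subunit that binds collagen IV, was at 1245 and 928 CPM in Gpihbp1/Aqp1 capillaries, 829.6 and 623 CPM in Plvap-high capillaries, 900.0 and 643 CPM in arterial, 681 and 479 CPM in lymphatic and 349 and 360.2 CPM in venous cells. It was lower in venous cells than in capillaries by -1.07 ± 0.11 (edgeR, adjusted p = 8.97e-13) and lower in Plvap-high than in Gpihbp1/Aqp1 capillaries by -0.46 ± 0.11 (adjusted p = 4.41e-04). In those same venous cells Col4a1 and Col4a2 were lower too. Itgb1, its partner subunit, was lower in Plvap-high than in Gpihbp1/Aqp1 capillaries by -0.58 ± 0.11. The collagen receptor kinase Ddr1 was at 15.7 and 6.80 CPM in lymphatic cells, 3.36 and 7.51 CPM in arterial cells and at most 1.07 CPM elsewhere. Over the list, 1 was higher and 3 lower in lymphatic against blood cells, 1 and 0 in arterial against capillary, 1 and 1 in venous against capillary, 2 and 1 in arterial against venous, and 0 and 2 in Plvap-high against Gpihbp1/Aqp1 cells. In the same order, 51.6, 10.6, 26, 22.4 and 25.9% of all genes passed.

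Within the arterial class, collagens varied with 2 genes that mark its subsets, Fn1, which encodes fibronectin, and S100a4. Cells with at least 2 UMIs of these numbered 45 and 308 in libraries 1 and 2, and cells with none 80 and 410. This split was chosen with the data in view and carries no test. Col18a1 was at 85.1 and 83.5 CPM in the former and at 19.5 and 5.09 CPM in the latter. Col5a2 was at 53.7 and 46.7 CPM against 3.26 and 3.05 CPM. For both genes the Poisson intervals of the 2 kinds of cell did not overlap in either library. These intervals cover counting error only and not the spread between cells. All 15 arterial Col5a2 UMIs of library 1 lay in 7 cells. Col8a1 was at 92.8 against 11.2 CPM in library 2, while in library 1 the values of 44.8 and 32.6 CPM had overlapping intervals. The direction was opposite for Col15a1, at 98.5 and 87.8 against 277 and 362 CPM, for Col13a1, at 112 and 125 against 300.0 and 262 CPM, and for Col4a1, at 649 and 610.5 against 1049 and 1066 CPM. Cells with at least 2 such UMIs were deeper, with medians of 4251 and 4865.5 UMIs against 3455.5 and 4418, and the part of depth in these differences was not tested.

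**Figure D5:**
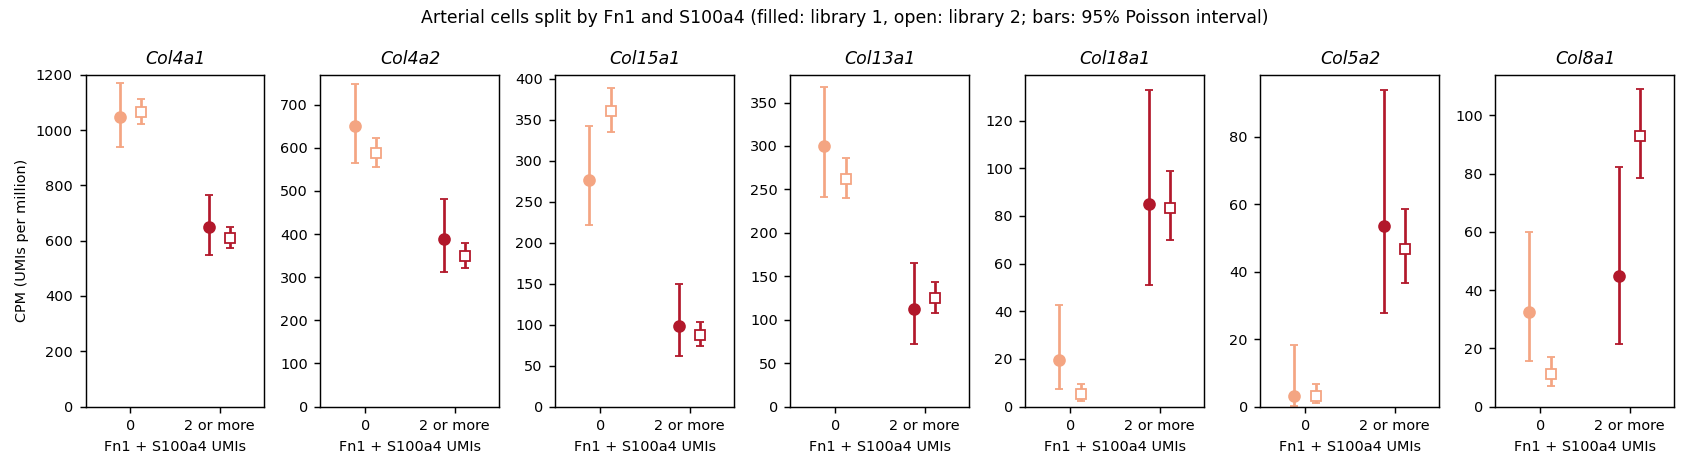
Levels in CPM, on linear axes from 0, of 7 collagens in arterial cells with 0 and with 2 or more UMIs of Fn1 and S100a4, by library (filled, library 1; open, library 2) with 95% Poisson intervals. Col18a1 and Col5a2 are higher in the cells with these UMIs, Col15a1, Col13a1, Col4a1 and Col4a2 are lower, and Col8a1 differs beyond its intervals in library 2 only.

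The 23 collagens with fewer than 30 endothelial UMIs, the 6 without any included, were at most at 6.12 CPM in any class of either library, apart from Col5a3. Col5a3, a fibrillar chain, was at 39.4 CPM in lymphatic cells of library 1 (10 UMIs in 7 of 78 cells) and at 3.20 CPM in those of library 2 (8 UMIs in 7 of 975 cells), and at most at 0.80 CPM in the blood classes. Col27a1 and Col16a1 were also highest in lymphatic cells, at 3.94 and 5.60 CPM and at 3.94 and 2.0 CPM. Fitted without the filter on low counts, over 18598 genes, Col4a5 (7.26 ± 0.96), Col5a3 (3.85 ± 0.77) and Col27a1 (3.79 ± 0.97) were higher in lymphatic than in blood cells. Col4a5 was at 0 CPM in arterial, venous and Gpihbp1/Aqp1 cells, so its fitted size is no bound. Col17a1 was lower in lymphatic cells (-5.76 ± 1.89, edgeR, adjusted p = 9.43e-03), where it had no UMI, so that the fitted size is no bound. In the same fit Col17a1 was higher in Plvap-high than in Gpihbp1/Aqp1 capillaries (2.32 ± 0.54, edgeR, adjusted p = 2.63e-04) and Col6a1 was lower (-2.23 ± 0.81, adjusted p = 0.0411). For Col17a1 the Poisson intervals of these cells parted in library 2 only. Epithelial markers summed to 524 CPM in Plvap-high cells of library 2, against at most 21.6 CPM in the other endothelial classes. A part of epithelial RNA in Col17a1 was not tested.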

How the data were processed

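The authors deposited raw UMI counts of genes in barcodes, with a matrix for each library. The authors used Cell Ranger 3.1.0, bcl2fastq 2.2 and the build mm10, per the submitters' processing notes, which give no order or role, and name no gene annotation. Barcodes counted as cells where they held 500 genes or more and mitochondrial UMIs of 15% or less. Cells meeting the rules of 2 classes were left out (38 and 346), as were cells meeting none (58 and 181). Fibroblasts had at least 5 UMIs of Dcn, Lum, Pdgfra and Dpt, and mural cells at least 5 of Rgs5, Notch3, Pdgfrb and Myh11, with at most 1 UMI of Flt1, Plvap, Pecam1 and Cdh5. Scrublet (scanpy 1.11.5) called 4 and 5 cells as doublets (0.409 and 0.0824%), too few to rely on, so none were removed and a run without the highest 5% of scores in each library was made instead.

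UMIs were summed per library and class, and the 10 sums were fitted together with edgeR 4.0.16 in R 4.3.3 (quasi-likelihood, robust), with TMM scaling and a term for the library, which all its classes share. The filter was filterByExpr at 10 counts, and Benjamini-Hochberg adjustment ran over 10535 genes. There are 4 residual degrees of freedom and a median of 64.6 prior ones, so the spread behind each p is mostly borrowed from other genes. The SE was taken as the log2 difference over root F. Values per library are on log2(CPM + 1). The 6 comparisons between single pairs of classes were added after the levels had been seen. The scripts were tested on simulated data.

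All 44 collagens are described, and those with at least 30 endothelial UMIs have values by class, or a range or upper limit over their low classes. Of the 2 lists of processing and receptor genes, up to 4 passing genes per comparison are named. The members and lists were chosen with earlier results of these data known. Intervals and floors cover counting error only, at a level of 95%. Coordinates come from GENCODE vM21 on GRCm38, where 44 of 44 collagens matched. Alternatives were no scaling, DESeq2 1.42.0, no filter, no block, stricter cells, doubled class thresholds, mixed cells kept, cells with a mural or fibroblast marker UMI left out, all blood cells pooled, and each library alone.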

Additional observations from a re-analysis of the deposited data

How the results depend on the processing

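Each comparison was refitted with 1 choice changed at a time. Fitted without the replicate block, 593 genes instead of 1119 were called between arterial and capillary cells and 1520 instead of 2727 between the 2 capillary kinds. DESeq2 called 547 in the former, 1377 in the latter and 1437 instead of 2363 between arterial and venous cells. The number of collagens called between venous cells and capillaries went from 4 to 7 with doubled class thresholds and to 7 with mixed cells kept, 3 of the 4 being shared each time. Between the 2 capillary kinds it went from 3 to 5 without the filter, where more collagens were tested, and to 11 with mixed cells kept. More genes than in the main fit also passed the filter with doubled thresholds (10990 tested) and with mixed cells kept (11254 tested). The collagens called there can thus include chains outside the 11 of the main fit, and the 11 called need not be those 11. Keeping mixed cells also turned Col5a2 in lymphatic against blood cells to -0.32 (edgeR, adjusted p = 0.393), and Col15a1 in venous cells against capillaries was -0.019 in library 1 alone and 0.48 in library 2 alone. Apart from the larger number tested, the causes were not tested. Leaving out 4 cells of library 2 with over 1% epithelial or haemoglobin UMIs, chosen after seeing the data, changed no call of the 11 collagens tested. Col17a1 was not among these. Without scaling the median of all genes moved to -0.20 in venous against capillary, 0.16 in arterial against venous and -0.13 in Plvap-high against Gpihbp1/Aqp1 cells. In the 5 main comparisons the block changed 4 collagen calls: Col8a1 in lymphatic against blood cells (adjusted p = 0.0535), Col4a3 in arterial against capillary cells (0.0503), and Col15a1 in venous against capillary (0.114) and arterial against venous cells (0.177), all edgeR. In the 6 added pairs it changed 3: Col5a2 in lymphatic against arterial (0.0603), Col4a2 in lymphatic against venous (0.0637) and Col4a1 in arterial against Gpihbp1/Aqp1 cells (edgeR, adjusted p = 0.071). With each library alone there are no residual degrees of freedom, and values were given without a test. Depth limits the lymphatic and venous classes of library 1 most.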

Other observations

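Splits of the lymphatic and Plvap-high classes, chosen with the data in view and not tested, gave these values. Lymphatic cells with at least 2 UMIs of the guanylate-binding protein genes Gbp2 and Gbp4 held Col14a1 at 124 and 80.0 CPM in libraries 1 and 2, and those with none at 41.2 and 53.3 CPM. Col18a1 went the other way, at 155 and 98.2 against 219.7 and 143 CPM. The Poisson intervals of Col14a1 overlapped in both libraries, and those of Col18a1 overlapped in library 1 and only just parted in library 2. Cells with these UMIs were deeper, with medians of 4300 and 2548.5 UMIs against 1947.5 and 1863. Plvap-high cells with at least 2 UMIs of Esm1, a gene of endothelial tip cells, held Col4a3 at 11.1 and 16.9 CPM and those with none at 3.86 and 5.30 CPM. In library 1 these are 4 and 3 UMIs with overlapping intervals, while in library 2 the intervals did not overlap. The cells with Esm1 UMIs were deeper, with medians of 4656 and 4751 UMIs against 3327 and 3831.5. The part of depth in these splits was not tested. Col4a1 was at 1731 and 1714 against 1590.1 and 1449 CPM in the same cells, while Col15a1 was at 740.3 and 633 against 767 and 642.5 CPM.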
